A study of Ictidomys tridecemlineatus with 15 samples.

Results

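The subject here is the set of 100 gene rows that marked Müller glia most strongly in single-cell RNA-Seq of the developing retina of the 13-lined ground squirrel (13LGS). Unique molecular identifier (UMI) counts were summed per matrix row over all cells of each of the 12 annotated cell types and expressed per 1000000 UMIs of the type (CPM). Each row was scored as the log2 ratio of its CPM in Müller glia (MG) to its highest CPM in any other type, with 10 CPM added to both, and the 100 rows with the highest scores were taken among the 3126 of 34181 rows with at least 50 CPM in MG. The rows were thus chosen by their pooled levels in MG against the other types, and these levels are given as a description and were not tested. Gene names are not paired with matrix rows in the files as held here. Rows are therefore given by number, with no gene function or sequence, and the MG annotation could not be checked against named marker genes.

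Whole retinas of untreated 13LGS, from captive dams or from litters bred in captivity, were methanol-fixed or flash-frozen at 9 time points from embryonic day 18 (E18) to postnatal day 21 (P21), with birth at E27. The libraries were 1 at E18, 2 each at E21, E24 and E26, 1 at P4, 2 each at P8 and P12, and 1 each at P17 and P21. The paired libraries are called a and b, and the labels do not say whether they came from separate animals, so p-values measure the spread between these 14 libraries, which may be technical. The types used below are the authors' annotation: primary retinal progenitor cells of the early and the late stage (Early_RPC and Late_RPC), late-stage neurogenic progenitors (Late_NG), MG, and amacrine cells (AC) as a type outside the glial lineage.

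Müller glia are the principal radial glia of the vertebrate retina and span its whole thickness. They take up glutamate, move potassium and water, and support the neurons mechanically and metabolically. They are among the last cells that retinal progenitors produce, and they share many expressed genes with late-stage progenitors.

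The 46474 cells used carried between 5068787 and 49415813 UMIs per library. Median UMIs per cell ran from 5230.5 to 11868 in the 7 embryonic libraries and from 1548 to 4175 in the 7 postnatal libraries, so depth and stage ran together. MG were annotated in 5 libraries, with 94 cells in P8a, 363 in P12a, 284 in P12b, 350 in P17 and 194 in P21. Library P8b stood apart from P8a in that it held no annotated MG and its late-stage progenitors were close to those of P4, and the counts of calls and of rows without overlap are also given without it. There were 263 barcodes shared between libraries among 46210 distinct ones.

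The 100 rows together held 6.04% of all UMIs in MG. The share was 1.29% in Late_RPC, 0.764% in Late_NG, 0.624% in photoreceptor precursors, 0.563% in Early_RPC, 0.589% in AC and 0.399% in horizontal cells. Late_RPC was the type with the highest level outside MG for 60 of the 100 rows. The score ran from 1.24 to 4.77 with a median of 1.77, and the level in MG ran from 51.5 to 11080 CPM with a median of 171 CPM. In MG, 11 rows exceeded 1000 CPM and 32 lay under 100 CPM. The median level of a row was 25.03 CPM in Late_RPC, 12.3 CPM in Early_RPC and 7.92 CPM in AC. The pattern was therefore one of strong enrichment in MG over a low level in most other types, with late-stage progenitors next.

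**Figure D1:**
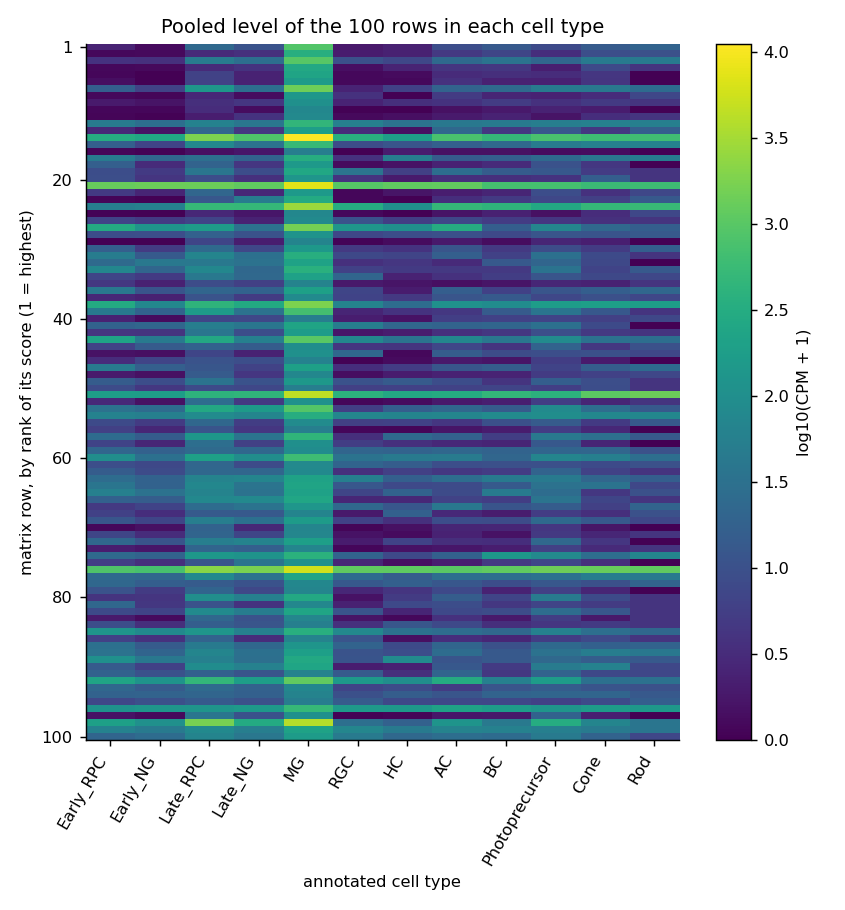
Heat map of the pooled level of the 100 rows (vertical axis, ordered by score) in the 12 annotated cell types (horizontal axis), as log10(CPM + 1). The MG column is the brightest by construction, Late_RPC is the next highest column for 60 rows, and a few abundant rows, such as row 5056 and row 16887, are visible in every type.

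Row 18178 had the highest score, with 870 CPM in MG and 22.3 CPM in Late_RPC, its next highest type. Row 28988 had 336 CPM in MG and 9.25 CPM in rods, which rested on no more than 3 UMIs, so no fold is given. Row 4732 had 968 CPM in MG and 46.5 CPM in Late_RPC. These highest-scoring rows were nearly restricted to MG.

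Row 14673 had 276 CPM in MG against 6.81 CPM in cones. Row 28298 had 228 CPM against 5.19 CPM in Late_RPC, and row 26509 had 163 CPM against 5.19 CPM in Late_RPC. Row 5250 was the most abundant of the 10 highest-scoring rows, at 1423 CPM in MG, and with 138 CPM in Late_RPC it was also the one with the most signal in progenitors. Rows 30864, 14675 and 18390 completed the 10, with 139, 108 and 73.8 CPM in MG and under 7 CPM in every other type.

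The most abundant rows were less restricted. Row 26079 had 11080 CPM in MG and 1767 CPM in Late_RPC. Row 5056 had 7236 CPM in MG, with 1364 CPM in early-stage neurogenic progenitors and 1291 CPM in Early_RPC, types that are annotated mainly before glia. Row 16887 had 5634 CPM in MG and 2099 CPM in Late_RPC, with 736 CPM in early-stage neurogenic progenitors as its lowest level in any type. These rows are broadly expressed and highest in MG.

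Rows 11665 and 28305 completed the 5 rows with the highest level in Late_RPC. Row 11665 had 3901 CPM in MG and 1632 CPM in Late_RPC but 196 CPM in Early_RPC. Row 28305 had 2758 CPM in MG and between 423 and 530 CPM in rods, Late_RPC, Late_NG, AC, cones and bipolar cells, so it was spread over the postnatal types. At the threshold, rows 24457 and 15315 were the last inside, with scores of 1.25 and 1.24, and rows 25424 and 9992 were the first outside, both with a score of 1.23. The scores on both sides of the threshold were nearly equal.

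The summed share of UMIs was higher after birth than before it in primary progenitors, was higher at later ages in MG, and changed less in AC. In primary progenitors (Early_RPC and Late_RPC together), the share was 0.542% at E18, 0.599% and 0.549% at E21, 0.568% and 0.570% at E24, and 0.576% and 0.594% at E26. It was 0.908% at P4, 1.91% in P8a, 0.902% in P8b, 2.49% in P12a and 2.30% in P12b. The 7 embryonic libraries spanned a narrow range that lay wholly below the 5 postnatal ones.

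In MG the share was 3.18% in P8a, 4.59% in P12a, 3.91% in P12b, 8.29% in P17 and 11.4% in P21. Each MG value lay above every progenitor value, and the P21 value above all others. In AC it lay between 0.439% and 0.728% in the 8 libraries with at least 10 AC, and in P4, where no MG were annotated, it was 0.552%. In retinal ganglion cells it was 0.387% in E18 and 0.757% in P21. In Late_NG it was 0.385% in E26a, 0.536% in P4, 0.811% in P8a and 0.828% in P8b. Later it was 1.02% in P12a, 0.758% in P12b and 1.40% in P17. Each postnatal value of Late_NG lay above that of E26a, so a higher share after birth was not particular to primary progenitors. In photoreceptor precursors it was 0.438% in P4, 1.07% in P8a, 0.996% in P8b, 0.721% in P12a and 0.456% in P12b. In P8b it was thus higher in these precursors than in primary progenitors (0.902%), so a raised share at P8 was not particular to progenitors. The 95% Wilson intervals of these shares were narrow, for example 3.11% to 3.24% in MG of P8a, and cover counting error only.

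At E26 a higher share with the late-stage label was not detected in E26a, the only E26 library with both labels. In library E26a, 42 cells were annotated Late_RPC and had a share of 0.580% (95% Wilson interval 0.546% to 0.617%), and the 1018 Early_RPC of the same library had 0.576% (0.571% to 0.582%). The intervals overlapped, so a difference was not detectable at this depth, and they cover counting error within a single library only.

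**Figure D2:**
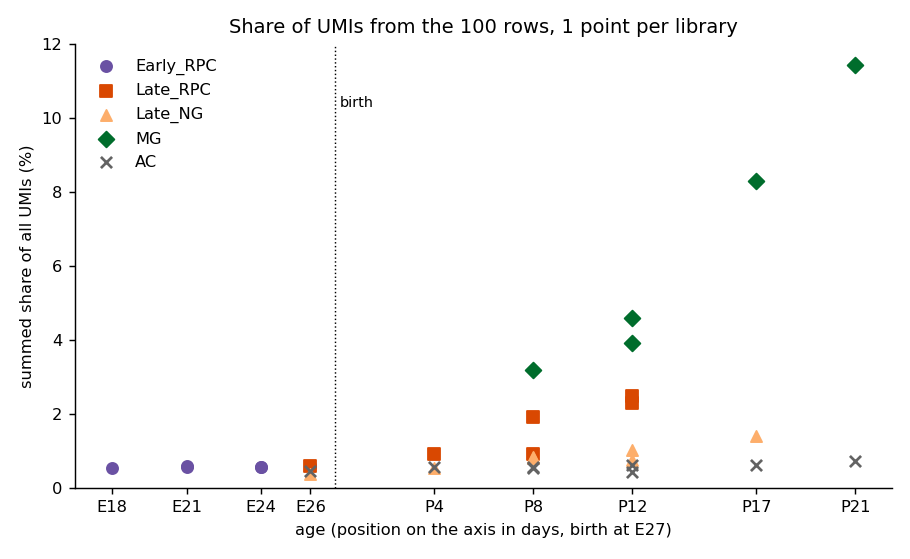
Share of all UMIs that came from the 100 rows (vertical axis, percent) against age (horizontal axis, with birth as a dotted line), 1 point per library and type with at least 10 cells. Early_RPC stay between 0.542% and 0.599%, Late_RPC reach 2.49% at P12, MG reach 11.4% at P21, and AC stay at or under 0.728%.

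Primary progenitors after birth (5 libraries, P4 to P12) were compared with those before birth (7 libraries). The question was when the rows of mature glia appear in the cells that precede them. Nearly all of these cells were Early_RPC before birth and Late_RPC after it. The exceptions were 1 Late_RPC in E21a and 42 in E26a, and 5 Early_RPC in P4 and 2 in P8b. Stage and annotated type thus cannot be told apart here. Counts were summed per library and fitted with edgeR's quasi-likelihood test over all rows. The rule used the pooled levels of both progenitor types as upper limits, but not the difference between them. Of the 88 rows that passed the filter on low counts, 64 were higher after birth at an adjusted p below 0.05 (edgeR) and none was lower, also at an unadjusted p below 0.05. DESeq2 called 67, all higher. Over all 14757 rows tested, 13.1% were higher and 19.6% lower. The median log2 fold change was 1.58 over the 88 rows and −0.18 over all rows tested. The called changes ran from 0.68 to 6.07 on the log2 scale, and 58 of the 64 were at least 1. Postnatal and embryonic libraries did not overlap for 36 of the 88, all higher after birth, against 4.79% of all rows tested, and without P8b for 46, against 7.85%. For 1 of the 88, row 21894, no embryonic library reached the 1.25 CPM of the filter, so that it passed only through the group where it was high. Of the 87 rows with an embryonic library at this level, 63 were called. The filter asked for as many libraries at this level as the smaller group held. Rows with few such embryonic libraries could thus also pass only through the postnatal group, as rows 32627 and 1933 did. How many rows did so was not counted. Row 18178, with no UMI in P8b, needed embryonic libraries as well to pass. The 12 rows that were not tested had between 13 and 103 UMIs over the 12 libraries. With no filter on low counts, 69 of the 100 rows were called, and without P8b 65 rows were called. Median UMIs per cell lay between 5390 and 12634 in Early_RPC of the embryonic libraries and between 1530 and 4787 in Late_RPC of the postnatal ones. With every library thinned to the smallest sum, 12 of the 20 rows that could still be tested were called.

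The rows with the largest rise were close to absent before birth, and each passed the filter on low counts only through its postnatal libraries. Row 21894 had 0.0758 to 0.598 CPM in the embryonic libraries, with a median of 0.420 CPM, and 14.2 CPM in P4, 35.6 in P8a, 6.18 in P8b, 13.7 in P12a and 15.4 in P12b. Every postnatal library lay above every embryonic one, but the row had 1 to 5 UMIs in each embryonic library and 37, 32, 1, 3 and 5 UMIs in P4, P8a, P8b, P12a and P12b, so the value of P8b is a single UMI. The log2 fold change was 6.07 ± 0.51 (SE; edgeR, adjusted p = 3.2e-06).

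Row 32627 was at 0 to 3.08 CPM before birth, with a median of 0.303 CPM and its highest values at E26. It had 35.6 CPM in P4, 55.7 in P8a, 68.0 in P8b, 9.15 in P12a and 33.9 in P12b, again with no overlap, though P12a rested on 2 UMIs. Its log2 fold change was 5.67 ± 0.80 (SE; edgeR, adjusted p = 2.0e-04).

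Row 1933 was between 0.422 and 1.36 CPM before birth, with a median of 0.980 CPM. It had 2.29 CPM in P4, 36.8 in P8a, 18.6 in P8b, 68.6 in P12a and 117 in P12b. The groups did not overlap, but P8b rested on 3 UMIs and P4 lay much nearer to the embryonic libraries than to the later ones. Its log2 fold change was 5.58 ± 0.68 (SE; edgeR, adjusted p = 6.8e-05).

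Among the 10 highest-scoring rows, only rows 18178, 4732 and 5250 passed the filter on low counts, and all 3 were higher after birth. Row 4732 had 0.980 to 4.16 CPM before birth (median 2.36) and 12.6 CPM in P4, 80.2 in P8a, 6.18 in P8b, 156 in P12a and 166 in P12b. The groups did not overlap, which for P8b rested on 1 UMI (log2 fold change 4.99 ± 0.58 SE; edgeR, adjusted p = 5.0e-05). Row 18178 had 0.420 to 3.71 CPM before birth (median 0.760) and 1.53 CPM in P4, 34.5 in P8a, 0 in P8b, 73.2 in P12a and 120 in P12b (4.91 ± 0.81 SE; edgeR, adjusted p = 6.4e-04). P4 thus lay within the embryonic range of row 18178, P8b, with no UMI, lay below it, and P8a and both P12 libraries lay above it. Row 5250 had 10.5 to 24.9 CPM before birth (median 14.5) and 51.2 CPM in P4, 251 in P8a, 18.6 in P8b, 659 in P12a and 326 in P12b. Library P8b, with 3 UMIs, was the only postnatal one within the embryonic range of this row (3.95 ± 0.54 SE; edgeR, adjusted p = 1.6e-04).

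Of the abundant rows, 26079 and 16887 rose by less. Row 26079 had 338 ± 54.7 CPM (SD, n = 7) before birth and 3116 ± 2613 CPM (SD, n = 5) after, with a log2 fold change of 3.21 ± 0.42 (SE; edgeR, adjusted p = 1.2e-04). Row 16887 had 879 ± 111 CPM (SD, n = 7) before and 2601 ± 1021 CPM (SD, n = 5) after (1.57 ± 0.22 SE; edgeR, adjusted p = 1.8e-04). Neither overlapped between the groups. Row 5056, with 1246 to 1444 CPM before birth and 1153, 1628, 822, 2630 and 1302 CPM in P4, P8a, P8b, P12a and P12b, did not pass the test.

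Between neighbouring ages, the same 88 rows were set beside all 14757 rows tested. In P4, 65 of the 88 lay above both E26 libraries, against 38% of all rows, and 14 lay below both, against 50.4%. In P4, 51 lay above all 7 embryonic libraries, against 27.5% of all rows. In P8a, 79 were higher than in P4, against 44.9%, and in both P12 libraries 73 were higher than in P4, against 23.2%. Between P8a and P12 the direction was mixed, with 43 rows above P8a in both P12 libraries, against 22.1% of all rows, and 17 below it in both, against 31.2%.

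Onset was taken as the first time point at which the pooled level of a row in primary progenitors reached 10% of its pooled level in MG, with at least 3 UMIs. By this measure 36 rows were already on at E18, 6 came on at E21, 3 at E24 and 5 at E26, so that 50 of the 100 had their onset before birth. After birth, 16 came on at P4, 20 at P8 and 6 at P12, and 8 did not reach 10% in any progenitor library group. The set thus held rows already seen in early progenitors as well as rows that were nearly silent in progenitors. The measure was not applied to other types, so onset was not shown to be particular to primary progenitors. Against MG of the same library, the median row stood at 10.1% to 16.8% in Late_NG of P8a, P12a, P12b and P17. In AC of P8a, P12a, P12b, P17 and P21 the median row stood at 2.97% to 6.60%. Onset was a first crossing and did not have to last. At E26, 43 rows stood at 10% or more, and row 13578, with onset at E18, was at 0.96% of its MG level at P4. With the threshold at 25% of the MG level, 14 rows had their onset before birth, all at E18, and 38 came on at P8.

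The median row stood at 4.81% of its MG level at E18, 7.55% at E21, 7.79% at E24 and 8.09% at E26. It stood at 11.9% at P4, 28.2% at P8 and 37.2% at P12. For the other 3026 rows with at least 50 CPM in MG, the median lay between 88.3% and 97.7% at every time point. The 100 rows thus gained on their glial level mainly between P4 and P12. Most of the P8 pool came from P8a. In P8a alone 84 rows reached 10% of their MG level with at least 3 UMIs, and in P8b, whose 52 progenitors carried 143359 UMIs, 46 did.

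**Figure D3:**
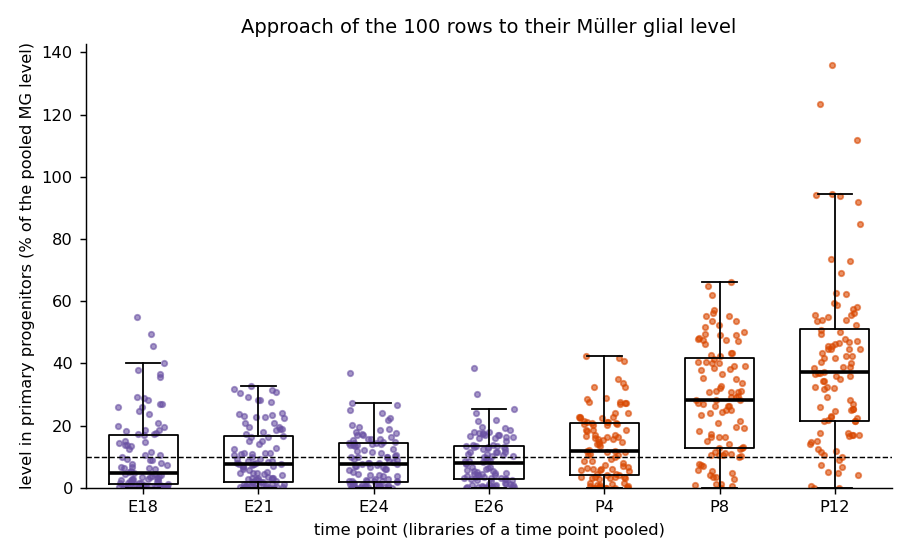
Level of each of the 100 rows in primary progenitors, as a percent of its pooled MG level (vertical axis), at each time point with libraries pooled (horizontal axis). Points are rows, boxes show quartiles with the median as a thick line, whiskers reach the most extreme row within 1.5 times the box height, and the dashed line is the 10% onset threshold. The median stays under 10% before birth and reaches 37.2% at P12.

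None of the 8 rows without onset passed the filter on low counts in the comparison of stages. These 8 were rows 28988, 14673, 28298, 30864, 14675 and 18390 of the 10 highest-scoring rows together with rows 11120 and 14086 (row 14086 is named because it completes this count). In MG, row 14086 had 254 UMIs in P17 and no more than 1 in any other library, so it rested on P17 alone. The most MG-restricted rows were thus the ones least seen in progenitors, as the score favours by its construction.

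Within the embryonic period the rows did not move together. Age was fitted over the 7 embryonic libraries, from E18 to E26, and of 88 rows tested 18 rose and 15 fell with age (edgeR, adjusted p below 0.05). The called changes ran from −0.42 to 1.14 per day on the log2 scale. Of all 15918 rows tested, 7.11% rose and 6.71% fell. The median change was 0.01 per day on the log2 scale over the 88 rows and 0.00 over all rows. The filter on low counts could admit a row through the ages at which it was high, and how many rows it so admitted was not counted. With no filter on low counts 36 of the 100 were called. E18 was a single library and carried part of this, since without it 18 of the rows were called in place of 33.

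Rows 4859, 32627 and 17658 had the largest rises. Row 4859 had 0.0536 CPM at E18, 0 and 0.0842 at E21, 5.68 and 3.28 at E24, and 13.3 and 13.9 at E26. It then had 63.5 CPM in P4 and between 55.7 and 197 CPM at P8 and P12. Its change before birth was 1.14 ± 0.11 per day (log2, SE; edgeR, adjusted p = 1.3e-04).

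Row 17658 had 5.75 CPM at E18, 11.6 and 11.4 at E21, 37.0 and 32.2 at E24, and 90.4 and 66.8 at E26, followed by 107 CPM in P4 and 136 to 268 CPM at P8 and P12. The ranges of successive embryonic ages did not overlap, and the level kept its order across birth. The change before birth was 0.49 ± 0.03 per day (log2, SE; edgeR, adjusted p = 2.3e-05). Row 32627 changed by 0.89 ± 0.13 per day (log2, SE; edgeR, adjusted p = 0.0013), with 55 UMIs in all before birth. Row 32627 reached the level of the filter on low counts only at E26, and row 4859 only at E24 and E26. Both passed only through the ages at which they were high, so the filter favoured their rise.

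Other rows fell in progenitors before birth, and some of them were higher again after it. Row 22383 had 36.4 CPM at E18, 20.99 and 18.7 at E21, 6.06 and 11.7 at E24, and 2.52 and 3.95 at E26. It had 2.68 CPM in P4, 20.1 in P8a, 6.18 in P8b, 22.9 in P12a and 36.9 in P12b, and between 50.9 and 109 CPM in MG. Its lowest levels were those of E26 and P4, and its level in P12b was close to that at E18. The change before birth was −0.42 ± 0.04 per day (log2, SE; edgeR, adjusted p = 2.6e-04).

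Row 5716 had 57.2 CPM at E18, 79.03 and 48.2 at E21, 29.1 and 41.1 at E24, and 16.8 and 19.4 at E26. It had 20.7 CPM in P4, 166 in P8a, 24.7 in P8b, 279 in P12a and 98.5 in P12b. The change before birth was −0.24 ± 0.05 per day (log2, SE; edgeR, adjusted p = 0.011), and without E26a it lost the call (edgeR, adjusted p = 0.052). Row 20318 changed by −0.33 ± 0.06 per day (log2, SE; edgeR, adjusted p = 0.0050), from 6.63 CPM at E18 to 1.82 and 0.598 CPM at E26. Without E18 it lost the call (edgeR, adjusted p = 0.24). Of the 15 rows that fell before birth, 10 had a higher pooled level at P12 than at E18, against 15.2% of the 1068 rows of the whole matrix that fell before birth.

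Among the postnatal progenitor libraries, from P4 to P12, 68 of 70 tested rows had a positive change with age, but few single rows passed the test. The median change was 0.19 per day on the log2 scale against 0.00 over all 5382 rows tested. At an adjusted p below 0.05, 7 rows rose and none fell (edgeR), against 0.353% of all rows called, 0.26% rising and 0.0929% falling. At an unadjusted p below 0.05, 42 rows rose and none fell. The filter on low counts could admit a row through its older libraries alone, and how many rows it so admitted was not counted. The count of calls depended on single libraries. Without P4, without P12a or without P12b no row was called (edgeR), although 18, 36 and 33 rows had an unadjusted p below 0.05 in those fits, and without P8b 18 rows were called. With no filter 33 of the 100 rows were called, and DESeq2 called 20, in both cases all rising.

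Row 13578 changed most. It had 1.91 CPM in P4, 6.68 in P8a, 0 in P8b, 101 in P12a and 52.3 in P12b, a change of 0.72 ± 0.11 per day (log2, SE; edgeR, adjusted p = 0.042). Before birth the same row had been at 25.9 to 72.8 CPM, so that its lowest values lay at P4 and P8. Rows 18178 and 1933, whose values are given above, changed by 0.67 ± 0.11 and 0.61 ± 0.09 per day (log2, SE; edgeR, adjusted p = 0.042 for both). Row 13578 reached the level of the filter only in the P12 libraries, and rows 18178 and 1933 only in P8a and the P12 libraries. These rows thus passed through libraries where they were high, so the filter favoured their rise.

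The 2 P8 libraries have the same labelled age, and 84 of the 88 rows were higher in P8a than in P8b and 4 were lower, against 52.9% and 40.5% of all 14757 rows tested. P8b held 52 primary progenitors with 143359 UMIs against 332 with 915006 in P8a, and 20 of the 100 rows had no UMI in it. Against P4, 37 of the 88 rows were higher in P8b, against 37.3% of all rows. The part of depth in these counts was not tested.

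Neurogenic progenitors after birth, of the early and the late stage together, were compared with primary progenitors of the same 5 postnatal libraries to ask whether the rows stay with the cells that keep a progenitor state. Of 53 rows tested, 42 were lower in neurogenic progenitors and none was higher (edgeR with library as a block, adjusted p below 0.05), against 17.5% of all 5654 rows tested that were called, 9.32% lower and 8.21% higher. At an unadjusted p below 0.05, 44 were lower and 1 higher, and DESeq2 called 53, all lower. The median log2 fold change was −1.31 over the 53 rows and −0.01 over all rows. For 10 of the 53 the groups did not overlap, all lower in neurogenic progenitors, against 1.91% of all rows lower and 2.46% higher, and without P8b for 11, against 4.46%. The called changes ran from −3.06 to −0.52. The 47 rows that were not tested had between 2 and 163 UMIs in the 10 sums, and with no filter on low counts 67 of the 100 rows were called. The filter could admit a row through primary progenitors alone, and how many rows it so admitted was not counted. Without P8b 47 rows were called, and with no library block 14.

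Row 5250 had 49.6, 253, 19.8, 717 and 337 CPM in primary progenitors of P4, P8a, P8b, P12a and P12b. In neurogenic progenitors of the same libraries it had 13.9, 28.7, 30.02, 86.4 and 18.8 CPM. It was lower in 4 of the 5 libraries, the exception being P8b (log2 fold change −3.06 ± 0.25 SE; edgeR, adjusted p = 3.2e-07).

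Row 13365 had 135, 199, 98.7, 378 and 245 CPM in primary and 32.0, 21.5, 60.04, 29.9 and 16.9 CPM in neurogenic progenitors. The groups did not overlap (−2.91 ± 0.25 SE; edgeR, adjusted p = 4.1e-07). The same row had 324 CPM in AC, its next highest type after MG. Row 21893 had 27.7, 54.0, 26.3, 69.7 and 89.0 CPM in primary and 2.78, 5.74, 10.0, 19.9 and 7.53 CPM in neurogenic progenitors, also without overlap (−2.88 ± 0.32 SE; edgeR, adjusted p = 5.1e-06). No neurogenic sum of row 21893 reached the level of the filter on low counts. It passed only through primary progenitors, where it was high, so the filter favoured this difference. The most abundant rows differed less between the classes. Row 16887 changed by −0.52 ± 0.10 (log2, SE; edgeR, adjusted p = 0.0016) and row 26079 by −1.44 ± 0.22 (log2, SE; edgeR, adjusted p = 1.2e-04), each lower in all 5 libraries.

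Late-stage progenitors and MG of the same library differed less than progenitors and MG of different ages. The median row in Late_RPC stood at 56.8% of its MG level in P8a, 52.5% in P12a and 53.8% in P12b. In P8a 12 rows were at or above their MG level, in P12a 3 and in P12b 9. In AC of the same libraries the median row stood at 6.60%, 5.52% and 5.04%.

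The course within MG was fitted over the 5 libraries with MG, from P8 to P21. The rule used MG counts summed over these libraries, so a row that was high in any of them was favoured. Of 99 rows tested, 38 rose with age and none fell (edgeR, adjusted p below 0.05), against 2.18% of all 9588 rows called, 1.77% rising and 0.407% falling. At an unadjusted p below 0.05, 63 rose and 1 fell, and DESeq2 called 42, all rising. The median change was 0.15 per day on the log2 scale over the 99 rows and 0.00 over all rows, and 91 of the 99 changes were positive. The row that was not tested, row 14086, had 256 UMIs, of which 254 were in P17. With no filter 53 of the 100 rows were called. Without P8a 16 rows were called and without P21 17. P17 and P21 were 1 library each, so that age and library cannot be told apart there. Median UMIs per MG cell were 2946 in P8a, 2671 in P12a, 5197 in P12b, 3948 in P17 and 2359 in P21, in no order by age, and with libraries thinned to the smallest sum 40 rows were called.

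P21 was the library with the highest level for 57 rows, P17 for 31, P12b for 6, P12a for 5 and P8a for 1. P8a was the lowest for 61 rows. In both P17 and P21, 61 of the 99 tested rows lay above all 3 younger libraries, against 14.6% of all rows tested, and none lay below them, against 14.5%. From P17 to P21, 59 of the 99 were higher, against 48.8% of all rows. Of the 100 rows, 25 were more than 2 times as high in P21 as in P17, and 15 were under 0.5 times as high. Between P17 and P21 the direction was thus mixed.

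**Figure D4:**
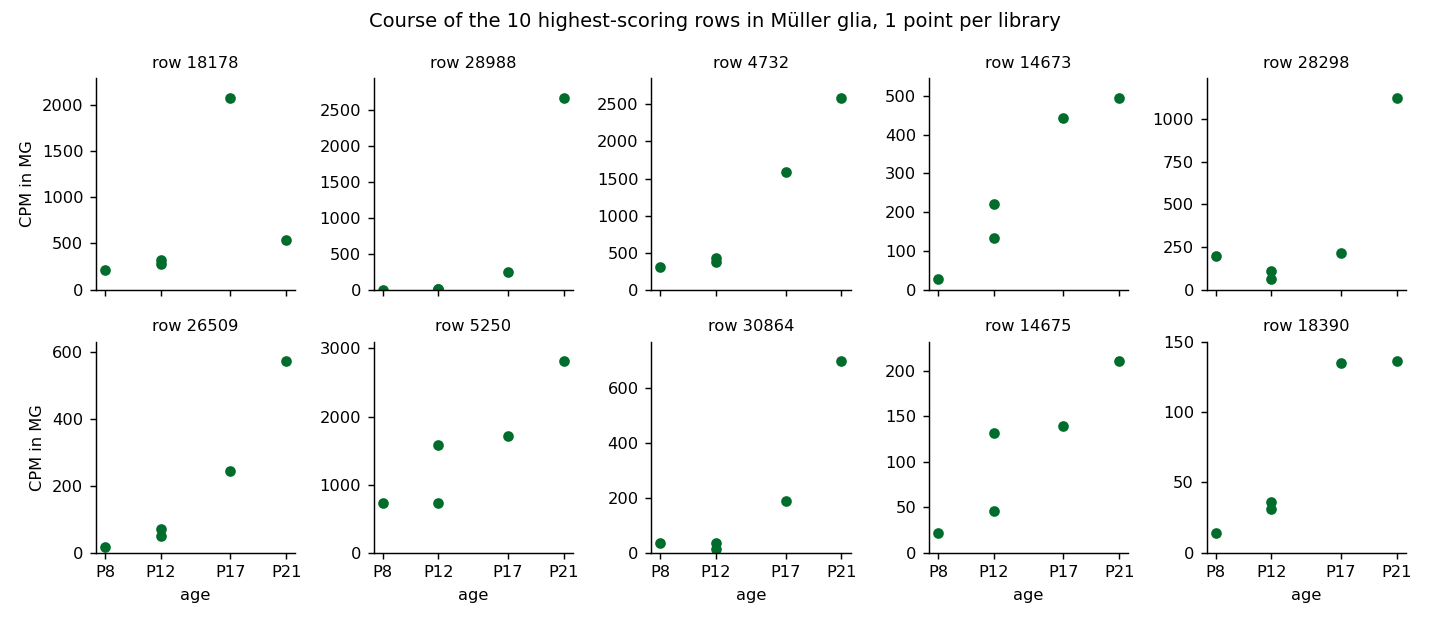
Level of the 10 highest-scoring rows in MG (vertical axis, CPM scaled by the edgeR normalization factors, from 0) against age (horizontal axis), 1 point per library and no error bars. Row 28988 is at 2677 CPM in P21 and under 250 CPM in every other library, and row 18178 peaks at 2075 CPM in P17.

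Row 28988 had the largest change. It had no UMI in the 94 MG of P8a, 16.9 CPM in P12a, 10.4 in P12b, 244 in P17 and 2677 in P21. Each later age lay above all earlier ones. The change was 0.85 ± 0.04 per day (log2, SE; edgeR, adjusted p = 2.4e-06).

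Rows 11120 and 32821 followed a like course, with most of the rise between P17 and P21. Row 11120 had 17.7, 9.42, 10.4, 48.6 and 598 CPM in P8a, P12a, P12b, P17 and P21 (0.57 ± 0.07 per day, SE; edgeR, adjusted p = 0.0014). Row 32821 had 14.2, 15.1, 19.6, 37.8 and 546 CPM in the same order (0.50 ± 0.06 per day, SE; edgeR, adjusted p = 0.0018). Both lost the call without P21 (edgeR, adjusted p = 0.24 and 0.43). Their pooled level in MG reached the 50 CPM of the rule only through P21, so the choice of rows itself favoured their rise. Row 32821 was also present before glia, at 29.5 CPM in E18 progenitors and 11.7 to 23.9 CPM in the other embryonic libraries, and fell by 0.15 ± 0.03 per day there (log2, SE; edgeR, adjusted p = 0.0040).

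Row 18178 had another course, with 212 CPM in P8a, 281 in P12a, 322 in P12b, 2075 in P17 and 541 in P21. Its level in P17 was the highest by far, and its change with age did not pass the test. Of the 10 highest-scoring rows, rows 28988, 4732, 14673, 26509, 30864 and 18390 rose with age. The calls of 14673 and 18390 were lost without P8a (edgeR, adjusted p = 0.17 and 0.081), that of 14673 also without P12b (0.069), and that of 30864 without P21 (0.051). Row 4732 had 301, 431, 367, 1594 and 2592 CPM in P8a, P12a, P12b, P17 and P21 (0.27 ± 0.04 per day, SE; edgeR, adjusted p = 0.0034).

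Row 26509 had 17.7, 71.6, 51.6, 244 and 574 CPM (0.37 ± 0.03 per day, SE; edgeR, adjusted p = 2.5e-04). Row 5250, which was already at 726 CPM in P8a and reached 2820 CPM in P21, did not pass the test, with 1582 CPM in P12a and 727 CPM in P12b. The 3 most abundant rows differed in this. Row 26079 had 5339, 6048, 11702, 14293 and 13479 CPM and did not pass, and row 16887 had 4047, 5125, 4426, 6675 and 8298 CPM and did not pass. Row 5056 had 2797, 6892, 3029, 8976 and 19074 CPM and rose by 0.21 ± 0.04 per day (log2, SE; edgeR, adjusted p = 0.020).

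The rise in MG was spread over rows of early and late onset. It was called for 18 of the 50 rows with onset in progenitors before birth, 15 of the 42 with onset after birth and 5 of the 8 without onset. The median change in MG was 0.13, 0.14 and 0.27 per day (log2) in these 3 classes.

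The summed level was also described per cell. With each cell thinned to 1000 UMIs, the median MG cell held 32 UMIs of the 100 rows in P8a, 43 in P12a, 39 in P12b, 81 in P17 and 116 in P21. The 5th percentile in P21, 80.5 UMIs, lay above the 95th percentile in P12a, 68 UMIs. Late_RPC held a median of 9 UMIs in P4, 18 in P8a, 9 in P8b, 26 in P12a and 23 in P12b, and Early_RPC held 5 or 6 in every library. The interquartile range in P12a was 22 to 31 UMIs for Late_RPC and 36 to 52 for MG. Cells with fewer than 1000 UMIs were left out, 24 of 194 MG in P21 and at most 6 in any other MG library.

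**Figure D5:**
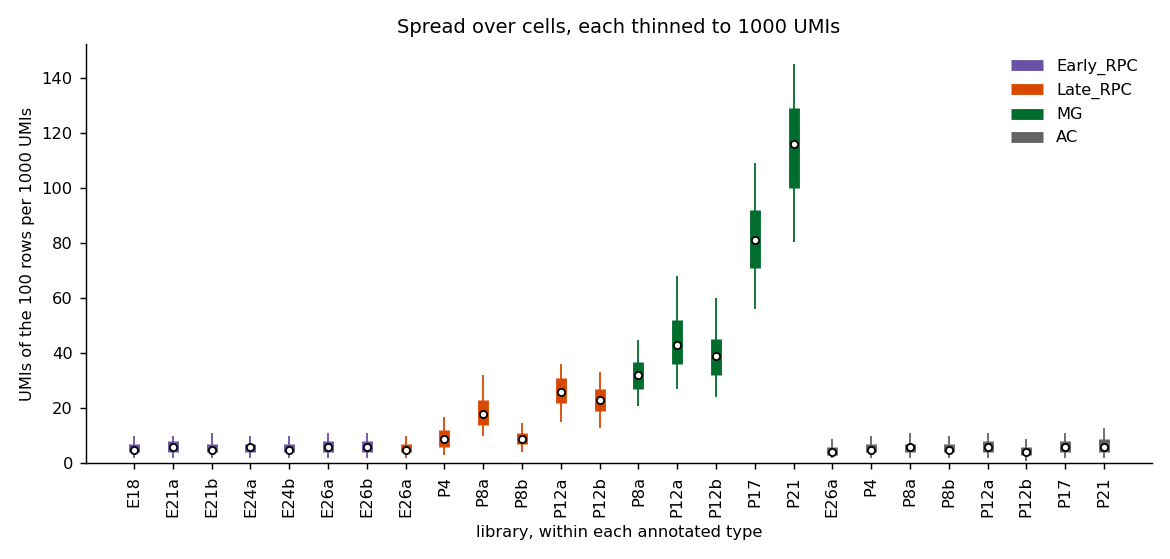
UMIs from the 100 rows per cell after thinning to 1000 UMIs (vertical axis), for each library within Early_RPC, Late_RPC, MG and AC (horizontal axis). White points are medians, thick bars the quartiles and thin bars the 5th to 95th percentiles over cells. MG medians run from 32 in P8a to 116 in P21, and AC medians stay between 4 and 6.

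Row 28988 was found in 0 of the 94 MG of P8a, which allows a share of cells with a UMI of up to 3.19%, the share of 3 cells. It was found in 4.68% of MG in P12a (95% Wilson interval 2.94% to 7.37%), 5.28% in P12b (3.23% to 8.53%), 52.3% in P17 (47.1% to 57.5%) and 96.4% in P21 (92.7% to 98.2%). In AC, which are neurons outside the glial lineage, the share was 0.559% in P8a, 0.987% in P12a, 0.21% in P12b, 1.44% in P17 and 2.44% in P21, with median depths between 2094 and 3598 UMIs. The limit of 3.19% in MG of P8a lay above the share in AC, so MG and AC could not be told apart there. In P12a, P12b, P17 and P21 the share in MG was above that in AC, before thinning. Thinned to 1000 UMIs, the shares in MG were 0.557% in P12a, 1.06% in P12b, 20.9% in P17 and 85.3% in P21, and those in AC 0.387%, 0.071%, 0.326% and 1.02%. At this equal depth the shares in MG and AC of P12a lay close together.

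Row 18178 was found in 34.0% of MG in P8a (25.3% to 44.1%), 38.8% in P12a (34.0% to 43.9%), 61.6% in P12b (55.8% to 67.1%), 94.9% in P17 (92.0% to 96.7%) and 65.5% in P21 (58.5% to 71.8%). In Late_RPC it was found in 0.291% of cells in P4, 6.93% in P8a, 14.8% in P12a and 33.3% in P12b. In AC the share was 0.158% in P4, 0.629% in P8a, 1.86% in P12a, 1.89% in P12b, 6.62% in P17 and 1.75% in P21. The share in AC was highest in P17, the library in which the level in MG was highest, and the part of free RNA in these shares was not tested. Thinned to 1000 UMIs, the shares in MG were 11.8%, 14.5%, 23.0%, 74.7% and 41.8% from P8a to P21, so the peak at P17 remained at equal depth.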

How the data were processed

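Single-cell RNA-Seq was performed by the authors on whole 13LGS retinas. Per their methods, CellRanger 3.1.0 was run against assembly HiC_Itri_2, its aggr function joined the libraries, and clusters were annotated in Seurat 4.0.4. Which minimum of UMIs applied per cell, and whether doublets were removed, was not given in the sources used here. Values deposited by the authors were UMI counts per gene row and cell, whole numbers and not normalized, with a cell table giving time point and type. In an order check on 3000 cells, 85.2% lay nearest their own annotated type, against 5.63% after shuffling.

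Libraries were told apart by the suffix of the cell names. The 2 suffixes of P1 (6920 cells, 13.0%) stand for 1 labelled sample and are not analysed here. All other cells were kept. Scrublet (scanpy 1.11.5) called 3 cells (0.0065%), too few to have worked, and no doublets were removed.

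Counts were summed per library and class with at least 10 cells and tested with edgeR 4.0.16 (quasi-likelihood, R 4.3.3, TMM factors, filterByExpr, Benjamini-Hochberg adjustment over all rows tested), which was tested on simulated data. Levels per library are CPM scaled by the TMM factors, and pooled levels per type are unscaled CPM. Age counted from conception, with birth at day 27. Alternatives were DESeq2 1.42.0 and its size factors, no filter, thinning, at least 30 cells, no cells above 2 times the median UMIs of their library and type, and leaving out each library. Rows named were the 10 highest scores, the 5 highest in Late_RPC, the 3 highest in MG, up to 3 with the largest called change in each direction of each test, and ranks 99 to 102. The rows and this rule were chosen with earlier results of these data known.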

Additional observations from a re-analysis of the deposited data

Results flagged for a closer look

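Dixon's ratio was computed for the summed share and 18 named rows in primary progenitors, 38 groups of libraries in all, of which 2 stood out. Chance flags about 1 in 20 groups. Row 18178 was at 3.71 CPM in E21a, far from the other 6 embryonic libraries, which lay between 0.420 and 1.60 CPM. Row 30864 was at 7.80 CPM in P8a, on 7 UMIs, and had no UMI in the other 4 postnatal libraries.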

How the results depend on the processing

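All counts are of the 100 rows, and the shares of all rows called under these alternative settings are not given. With libraries thinned to the smallest sum, the comparison of stages called 12 rows in place of 64 and that of neurogenic with primary progenitors 11 in place of 42, with 20 and 16 rows left to test. With no filter the change after birth called 33 in place of 7 and the neurogenic comparison 67. DESeq2 called 20 rows for the change after birth, and the neurogenic comparison without the library block called 14. With each library left out in turn, 53 to 68 rows were called between stages, 18 to 37 before birth, 0 to 18 after birth, 16 to 34 in MG and 31 to 47 in the neurogenic comparison. The other settings left these 5 counts within 1.5 times. With onset at 25% of the MG level, 14 rows began before birth in place of 50, and at 5% 66 did.

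The choice of rows itself was less sensitive. With 1 or 50 CPM added, 94 and 83 rows were shared, with the mean over libraries 76, and with each MG library left out 83 to 93 (this last alternative was chosen after seeing the data). No named row reversed its direction in a test, and of the values recomputed for these rows 348 kept their side of the threshold, 17 lost it and 11 gained it. Across ages, no paired analysis was possible because the library suffixes carry no replicate numbers, while the neurogenic comparison was blocked by library. Small progenitor sums at P8b and P12 limit single rows after birth.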
